A study of Mus musculus with 8 samples.

Results

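Semaphorins, their plexin receptors and the neuropilin co-receptors were examined as 1 gene family in primary murine pancreatic ductal adenocarcinoma (PDAC) cell lines treated with a MEK inhibitor. Members were taken by gene name alone, with no use of measured values: semaphorins of classes 3 to 7, plexins A to D, Nrp1 and Nrp2. This found 31 of the 34478 genes in the table, of which 20 are semaphorins, 9 are plexins and 2 are neuropilins. The study took 4 lines, numbered #1, #3, #5 and #10, that had been established earlier from pancreatic tumor pieces, and treated each for 48 h with trametinib (MEKi) at the IC50 of that line, or with the solvent DMSO as control. Each line gave 1 polyA RNA library per treatment, so 4 DMSO libraries were compared with 4 MEKi libraries. All lines, treated or not, come from the same mouse model. Cre is expressed from the Ptf1a locus in the pancreatic lineage (Ptf1a wt/Cre), where it deletes Trp53 (Trp53 loxP/loxP). The libraries are thus of tumor cells grown out in culture, and treated and control cells share these alleles. Whether the lines came from different mice is not given in the sources used here.

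Semaphorins are ligands that were first known for steering growing axons and that also act on vessels, immune cells and epithelia. Class 3 members are secreted, classes 4, 5 and 6 span the membrane, and class 7 is held at the surface by a lipid anchor. Plexins are single-pass receptors whose cytoplasmic part switches off small GTPases of the Ras and Rap group, and plexin B proteins also bind exchange factors that turn on RhoA. Neuropilins have little cytoplasmic part of their own. They bind class 3 semaphorins together with a plexin, and they bind VEGF together with a VEGF receptor. Axon guidance genes are recurrently altered in human PDAC genomes, and MEK, the target of trametinib, is the kinase that activates ERK.

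The values are the authors' normalized counts per gene, which summed to between 30680100 and 36385700 per library. From the step between low values, a library was estimated to hold 29331500 to 45952700 reads, and a count of 3 reads corresponded to 2.33 to 3.72 normalized counts. Of the 31 members, 29 had a mean of at least 10 over the 8 libraries and were tested, as part of a fit over 15888 genes. Plxnc1, the receptor of Sema7a, was listed at 0 in 3 of 4 DMSO libraries and reached 15.5 in MEKi line #3 alone. Sema5b did not exceed 8.54 in any library. Both fell below the filter and were not tested. All 6 genes chosen as readouts of MAPK signaling (Dusp6, Etv4, Etv5, Spry2, Fosl1 and Egr1) were lower with MEKi in limma (25.6% of all genes tested). Their median log2 fold change was -4.19.

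More members rose than fell. Genes were tested in limma on log2(normalized count + 1) with a term for the cell line (the block), and p-values were adjusted after Benjamini and Hochberg over all 15888 genes. On this test, 21 of 29 members passed an adjusted p of 0.05 (53.0% of all genes tested passed). Higher levels with MEKi were called for 15 members (27.3% of all genes), and lower levels for 6 (25.6% of all genes). The median log2 fold change was 0.58 over the 29 members and 0.07 over all genes, and the median size of the change was 0.95 against 0.53. Without regard to any model, the 4 MEKi libraries lay entirely above the 4 DMSO libraries for 9 members (15.1% of all genes) and entirely below them for 6 (16.2% of all genes). A called log2 fold change above 2 was found for 6 members, namely Plxnb1, Plxnb3, Sema3d, Sema3f, Sema4f and Sema6c, against 4.73% of all genes. Fold changes were calculated on the log2(value + 1) scale, which makes the change of weakly expressed genes look smaller than it is. With 1 library per line and treatment, these p-values rest on how far the change with MEKi varied between lines. Differences in response and noise of culture or library cannot be separated in that variation. In bulk RNA, fewer cells of a type and less RNA per cell cannot be told apart. With libraries rescaled to equal totals, the higher share of all called genes was 61.8% in place of 51.6%. The members stayed at 15 higher and 6 lower. With libraries centred on the median that share was 46.1%, with 13 members higher and 7 lower. Without the block for the line, 10 members were higher and 5 lower, against 2205 and 2347 of all 15888 genes. Without line #1 the number of members lower was 3, against 3401 of 15932 genes.

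**Figure D1:**
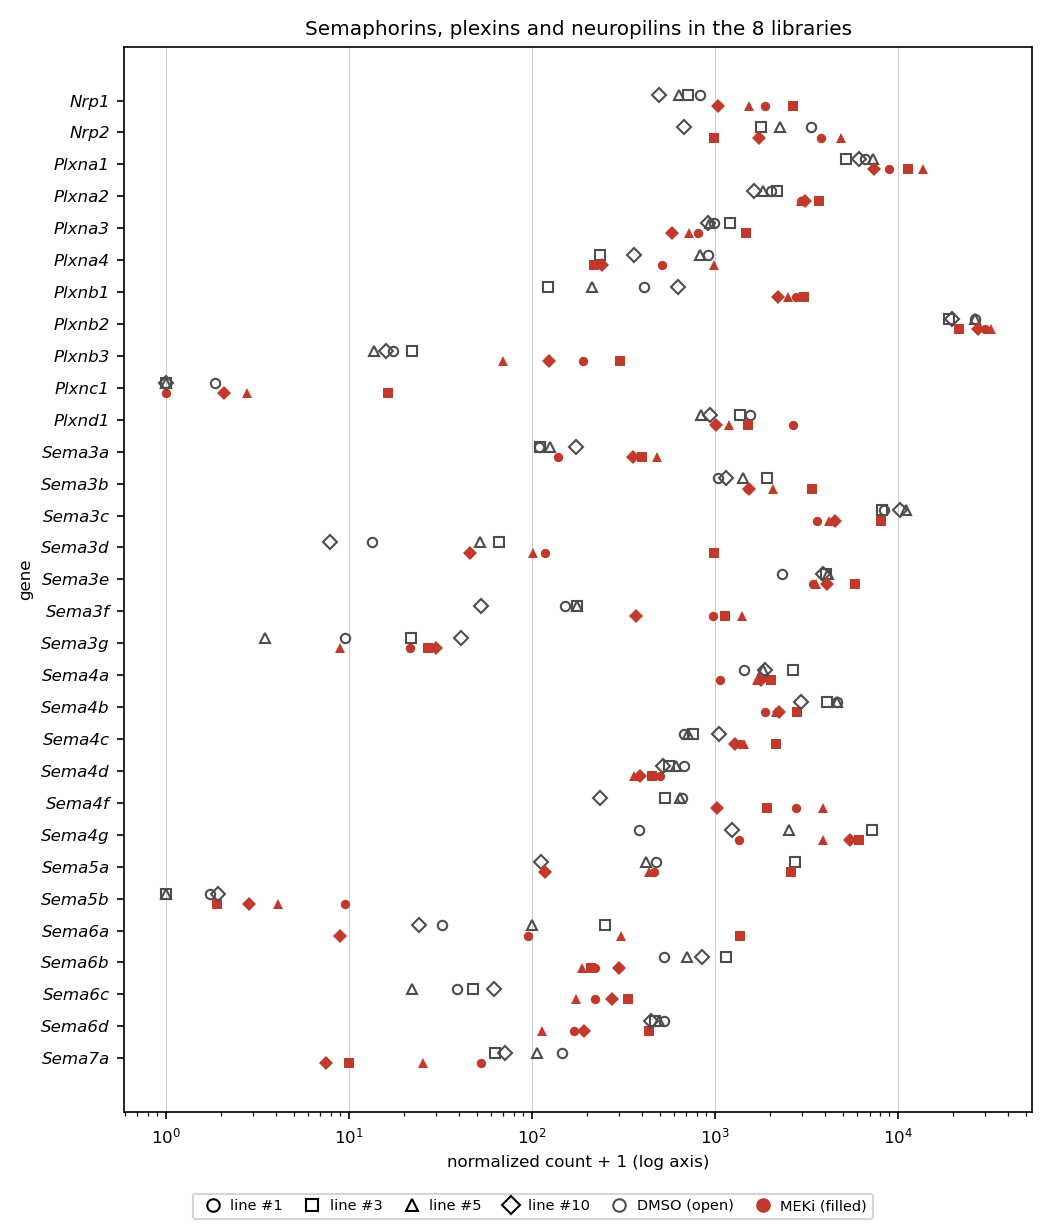
Normalized count + 1 (log axis) of the 31 members in each library. Open grey symbols are DMSO, filled red symbols are MEKi, and the symbol shape gives the line. All MEKi symbols lie right of all DMSO symbols for 9 members, such as Plxnb1 and Sema3f, and left of them for 6 members, such as Sema6b and Sema7a.

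**Figure D2:**
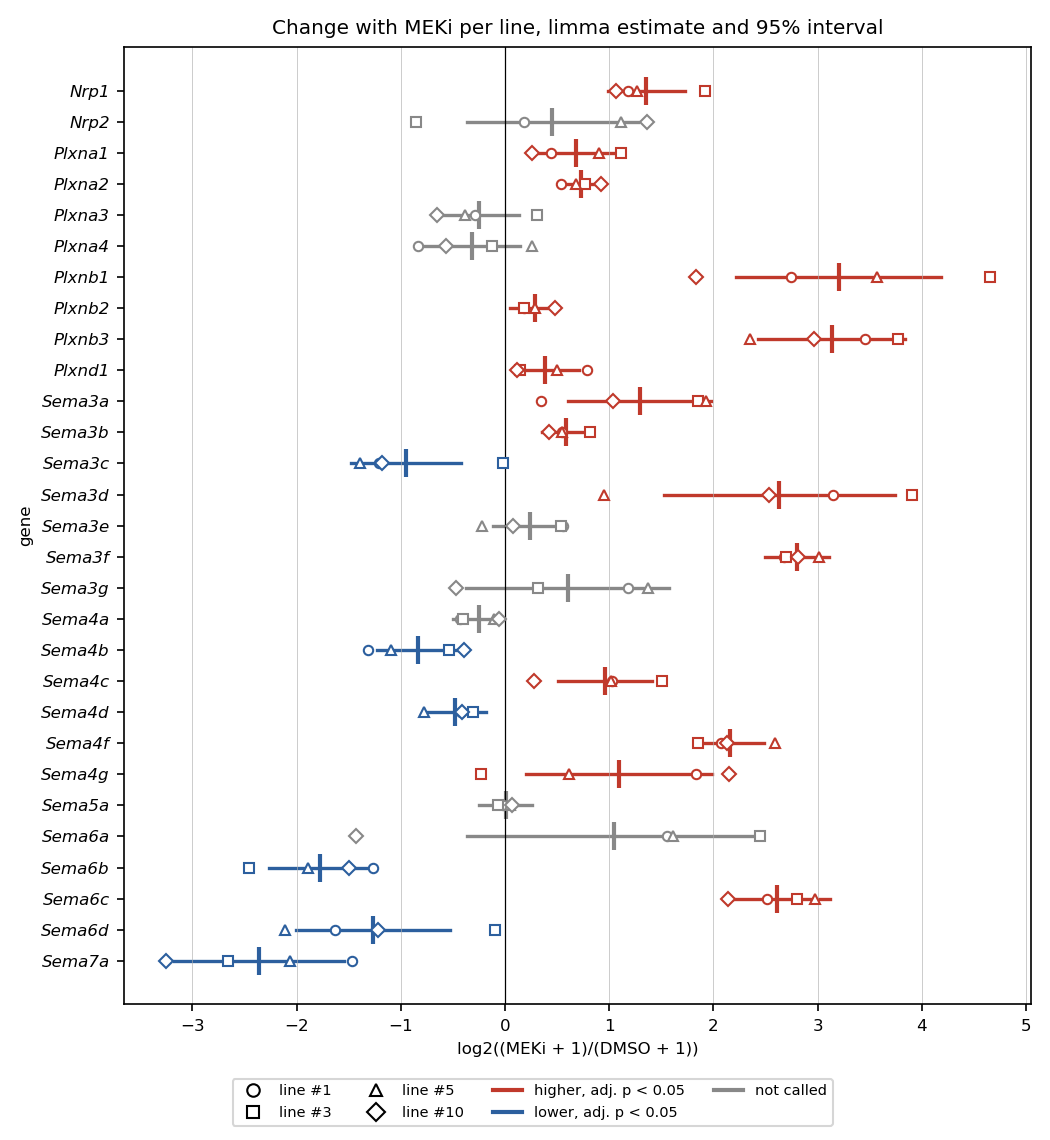
Change with MEKi for the 29 members tested, as log2((MEKi + 1)/(DMSO + 1)). Open symbols are the 4 lines, the vertical tick is the limma estimate and the horizontal bar its 95% confidence interval; red, blue and grey mark the 15 higher, the 6 lower and the 8 not called. Line #3 lies nearest to 0 for Sema3c and Sema6d and is the line below 0 for Sema4g and Nrp2, and line #10 is the line below 0 for Sema6a.

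**Figure D3:**
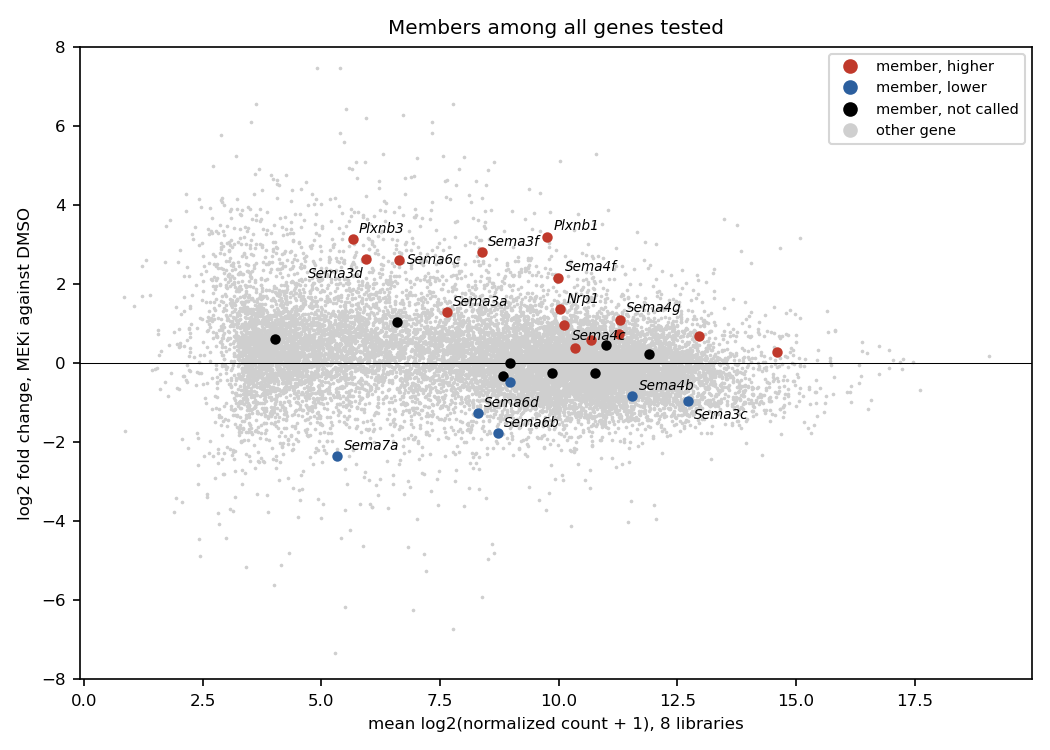
The 29 members tested against the other genes tested. The horizontal axis is the mean log2(normalized count + 1) over 8 libraries and the vertical axis the log2 fold change of MEKi against DMSO; called members with a change of over 0.8 are named. Plxnb1 combines a log2 fold change of 3.20 with a mean level above that of Plxnb3, Sema3d and Sema6c.

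The secreted class 3 semaphorins split. Of 7 members, 4 rose (27.3% of all genes), 1 fell (25.6% of all genes) and 2 were not called. Sema3f, a repellent of tumor and endothelial cells that signals through Nrp2, had the smallest adjusted p of the family. In DMSO it stood at 151, 175, 175 and 52.0 normalized counts in lines #1, #3, #5 and #10, the order used for all values that follow. With MEKi it stood at 973, 1139, 1415 and 370.5. Every MEKi library exceeded every DMSO library, and each line moved by nearly the same factor, with log2 fold changes from 2.68 to 3.01. The limma estimate was 2.80 (SE 0.13, adjusted p = 9.44e-05), a 6.96-fold rise, although the level in line #10 remained the lowest of the 4 under either treatment. Sema3b, the neighbor of Sema3f on chromosome 9 and like it a growth-restraining semaphorin, stood at 1036, 1925, 1421 and 1145 in DMSO and at 1514, 3382, 2079 and 1537 with MEKi. The groups overlapped because the lines differed in their starting level, yet all 4 lines rose, by 0.58 on the log2 scale (SE 0.10, adjusted p = 0.0028). Without the block that removes the line level, limma gave an adjusted p of 0.17 for Sema3b.

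Sema3a, the founding repellent of the class and a ligand of Nrp1, stood at 109, 109, 125 and 173 in DMSO. MEKi libraries held 138, 398, 479.6 and 357. All but line #1 rose clear of the DMSO range, and the overall log2 fold change was 1.29 (SE 0.29, adjusted p = 0.0090). Sema3d, best known from vascular and neural crest patterning, was scarce in DMSO, with 12.4, 65.1, 51.2 and 6.92 normalized counts. It reached 118, 988, 99.96 and 44.7 with MEKi. Line #3 held most of the Sema3d signal under MEKi, and the rise ran from 0.95 in line #5 to 3.90 in line #3 on the log2 scale (estimate 2.63, SE 0.46, adjusted p = 0.0036). For Sema3d, too, the call needed the block (adjusted p = 0.081 without it).

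Sema3c, which binds both neuropilins and is linked to invasion in several carcinomas, was the member of class 3 that fell. Its DMSO libraries held 8407, 8239.8, 11133 and 10301 normalized counts. MEKi libraries held 3635, 8110.4, 4229 and 4537. Lines #1, #5 and #10 changed by -1.40 to -1.18 on the log2 scale, whereas line #3 changed by -0.023 and lay just below the lowest DMSO library. The estimate was -0.95 (SE 0.22, adjusted p = 0.011). Leaving out line #1 moved the adjusted p to 0.0501, and leaving out line #3 gave a log2 fold change of -1.26. Sema3e, the ligand that binds Plxnd1 without a neuropilin, stood at 2339, 4038, 4135 and 3901 in DMSO and at 3429, 5849.9, 3555 and 4101 with MEKi. Its log2 fold change was 0.24 with an interval from -0.11 to 0.58 (adjusted p = 0.21). Sema3g, a ligand of Nrp2, ranged from 2.48 to 40.3 in DMSO and from 7.996 to 28.9 with MEKi and was not called (adjusted p = 0.25).

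Class 4 semaphorins are membrane ligands, several of which act through plexin B. Of 6 members, 3 rose and 2 fell, against 27.3% and 25.6% of all genes, and 1 was not called. Sema4f, a semaphorin of the nervous system, stood at 659, 535, 642 and 235 in DMSO and at 2767, 1936, 3878 and 1028 with MEKi. The groups did not overlap, and the rise of 2.16 on the log2 scale (SE 0.14, adjusted p = 0.00018) was found in every line between 1.85 and 2.59. Sema4c, a ligand of Plxnb2, stood at 677, 759.9, 714 and 1059 in DMSO and at 1377, 2165, 1449 and 1288 with MEKi. Again no library overlapped, with a log2 fold change of 0.96 (SE 0.19, adjusted p = 0.0057) that was smallest in line #10, where DMSO was already highest. Exons of Sema4c overlap those of D430040D24Rik on the other strand; libraries were stranded, but how strand was used in counting is not given in the sources used here.

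Sema4b and Sema4d went the other way. Sema4b stood at 4675, 4079.6, 4626 and 2938 in DMSO and at 1873, 2813, 2170.2 and 2230.4 with MEKi. All 4 MEKi libraries lay below the DMSO range (log2 fold change -0.84, SE 0.16, adjusted p = 0.0056). Sema4d, the high-affinity ligand of Plxnb1, stood at 674, 563, 616 and 521 in DMSO. It stood at 503, 455, 359.7 and 391 with MEKi, again below every DMSO library. The fall was modest at -0.48 on the log2 scale (SE 0.12, adjusted p = 0.017), and the call was lost without line #1, without line #5, without line #10 or without the block, at adjusted p values of 0.053 to 0.072.

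Sema4g, another ligand of Plxnb2, varied more between lines than with treatment. DMSO libraries held 382, 7189, 2555 and 1237 normalized counts. MEKi libraries held 1359.96, 6123, 3922 and 5506. Lines #1, #5 and #10 rose and line #3, where the gene was highest at the start, did not. The estimate of 1.09 (SE 0.38) passed narrowly (adjusted p = 0.046) and did not pass in 7 of 13 alternative settings of scaling, filter, model or lines left out, among them the fits without line #1, without line #5 or without line #10. Sema4a, an immune semaphorin, ranged from 1447 to 2670.2 in DMSO and from 1069.8 to 2014 with MEKi. Its log2 fold change of -0.25 was below 0 in all 4 lines but was not called (adjusted p = 0.079).

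Class 6 semaphorins, transmembrane ligands of plexin A, showed changes in both directions. Sema6b, a ligand of Plxna4, held 529, 1151, 699.8 and 849.7 normalized counts in DMSO. With MEKi it held 219.7, 209, 188 and 300.4. The lines changed by -2.46 to -1.26 on the log2 scale, the libraries did not overlap, and the log2 fold change was -1.78 (SE 0.21, adjusted p = 0.00087). Sema6d, a ligand of Plxna1, was even in DMSO at 529.99, 469, 493 and 448 and stood at 169.8, 438, 113 and 192 with MEKi. Line #3 changed by only -0.10 on the log2 scale while the other lines changed by -2.11 to -1.22. The estimate was -1.27 (SE 0.31, adjusted p = 0.013), and it missed the threshold without line #1 (adjusted p = 0.058).

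Sema6c moved against these. It stood at 37.9, 47.1, 21.2 and 61.3 in DMSO and at 220.3, 335, 174 and 274 with MEKi. The lowest MEKi library was far above the highest DMSO library, and the log2 fold change was 2.61 (SE 0.21, adjusted p = 0.00033). Sema6a, which binds Plxna2 and Plxna4, stood at 31.3, 249.9, 99.8 and 23.2 in DMSO. With MEKi it stood at 94.2, 1367, 307 and 7.98. Lines #1, #3 and #5 were higher by 1.56 to 2.45 on the log2 scale and line #10 was lower by 1.43. Over the 4 lines Sema6a was not called (1.05, adjusted p = 0.18), and without line #10 it passed as higher (1.87, adjusted p = 0.0043).

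Sema7a, the lipid-anchored ligand of integrin beta-1 and Plxnc1, was the member with the largest fall. It held 145, 62.0, 106 and 70.5 normalized counts in DMSO. MEKi libraries held 51.6, 8.998, 24.6 and 6.48. The groups did not overlap, and the log2 fold change of -2.36 (SE 0.34, adjusted p = 0.0017) corresponds to a 5.14-fold loss on the log2(value + 1) scale. Sema5a, a ligand of Plxnb3 with thrombospondin repeats, did not follow the treatment. It held 475, 2735, 421 and 111 in DMSO and 467, 2613, 436 and 117 with MEKi. The log2 fold change was 0.01, with a 95% interval from -0.25 to 0.26.

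Plexins moved upward or were not called. Of the 8 plexins tested, 6 rose (27.3% of all genes), none fell (25.6% of all genes) and 2 were not called, and of the 6, Plxnb2 and Plxnd1 lost the call in 8 of 13 alternative settings. The 3 plexin B genes all rose, by amounts that ranged from 0.28 to 3.20 on the log2 scale. Plxnb1, the receptor of Sema4d and a partner of the receptor tyrosine kinases Met and Erbb2, held 411, 121, 212 and 626 normalized counts in DMSO. With MEKi it held 2762, 3075, 2524 and 2223. The DMSO libraries spread over a 5.17-fold range, whereas the MEKi libraries lay close together. Line #3 started lowest and ended highest, and line #10 started highest and ended lowest, so that the log2 fold changes ran from 1.83 in line #10 to 4.66 in line #3. The estimate of 3.20 (95% interval 2.22 to 4.18, adjusted p = 0.0012) corresponds to a 9.19-fold rise. Whether lines differ in their response cannot be tested with 1 library each. Exons of Plxnb1 overlap Gm7628 on the other strand.

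The promoter of Plxnb1 is shown because the gene had the largest estimated log2 fold change over the 4 lines, 3.20 against 3.13 for Plxnb3. This order turned without line #3 (2.71 against 2.92) and without line #5 (3.08 against 3.40, with Sema3d at 3.19). It is the RefSeq window of 250 bases before to 50 bases after the start, on GRCm38.p6 at chr9:109095186-109095485, plus strand. GC content was 74.7% with 36 CpG dinucleotides, against medians of 52.7% and 7 over all 32851 windows in the RefSeq table. Capitals mark the letters GGAATG, a match to the TEAD motif 148 bases before the start.
Plxnb1: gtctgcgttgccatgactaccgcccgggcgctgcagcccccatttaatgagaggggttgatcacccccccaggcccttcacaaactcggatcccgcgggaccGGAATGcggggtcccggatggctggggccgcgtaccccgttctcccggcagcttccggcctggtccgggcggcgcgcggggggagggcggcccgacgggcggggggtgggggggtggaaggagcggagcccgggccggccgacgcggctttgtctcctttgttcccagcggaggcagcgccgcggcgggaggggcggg

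Plxnb3, a receptor of Sema5a, was nearly silent in DMSO with 16.5, 21.2, 12.7 and 15.0 normalized counts. It held 190.2, 302, 68.8 and 124 with MEKi. The groups were far apart, and the log2 fold change was 3.13 (SE 0.30, adjusted p = 0.00050), an 8.78-fold rise. Plxnb2, a receptor of Sema4c and Sema4g, was already abundant at 26457, 18992.5, 26363 and 19666. With MEKi it held 29997, 21530.5, 32157 and 27478. All 4 lines rose, but by 0.28 on the log2 scale (SE 0.10, adjusted p = 0.046), with overlapping groups. The Plxnb2 call was lost in 8 of 13 alternatives, including the fits without line #1, without line #5 or without line #10, where the adjusted p was 0.092 to 0.22, and without the block, where it was 0.29.

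Plexin A proteins carry the signal of class 3 semaphorins bound to neuropilins. Plxna1 stood at 6598, 5239, 7349 and 6157 in DMSO and at 8948, 11298.5, 13682 and 7369.7 with MEKi. The lowest MEKi library was just above the highest DMSO library (log2 fold change 0.68, SE 0.15, adjusted p = 0.0093). Exons of Plxna1 overlap Gm26811 on the other strand. Plxna2 stood at 2022, 2178, 1838 and 1639 in DMSO and at 2943, 3713, 2947 and 3097 with MEKi. Its rise was even across lines, from 0.54 to 0.92 on the log2 scale (estimate 0.73, SE 0.09, adjusted p = 0.0012). Plxna3 ranged from 920.5 to 1202 in DMSO and from 586 to 1487 with MEKi and was not called (log2 fold change -0.25, adjusted p = 0.22). Line #3 was the only line in which Plxna3 was higher with MEKi, and without line #3 the gene passed as lower (-0.44, adjusted p = 0.016). Plxna4 ranged from 236 to 916 in DMSO and from 217 to 984 with MEKi (log2 fold change -0.32, adjusted p = 0.21).

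Plxnd1, the receptor of Sema3e in vessels, stood at 1555, 1368, 845 and 941 in DMSO and at 2685, 1510.8, 1191 and 1019 with MEKi. The groups overlapped, and the rise of 0.38 on the log2 scale (SE 0.13, adjusted p = 0.049) was largest in line #1. The Plxnd1 call did not hold in 8 of 13 alternatives. Among these were the fits without line #1, line #5 or line #10, with adjusted p values of 0.18, 0.15 and 0.055, and the fit without the block, with 0.40.

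The neuropilins Nrp1 and Nrp2 are given side by side, and the difference between their changes was not tested. Nrp1 held 829, 709, 636 and 494 normalized counts in DMSO and 1875, 2679, 1529 and 1034 with MEKi. Every MEKi library exceeded every DMSO library, and Nrp1 rose 2.56-fold (log2 fold change 1.36, SE 0.15, adjusted p = 0.00082). Exons of Nrp1 overlap Mir1903 on the same strand. Nrp2 held 3367, 1778, 2259.9 and 677 in DMSO and 3822, 986, 4895 and 1748 with MEKi. Lines #1, #5 and #10 were higher and line #3 was lower by 0.85 on the log2 scale. Over the 4 lines the change of Nrp2 was not called (0.45, 95% interval -0.37 to 1.28, adjusted p = 0.30). Without line #3 it passed as higher (0.89, adjusted p = 0.015).

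Levels of different genes were compared per kilobase of exon, from the merged exons of each gene in GENCODE M21. On this scale Plxnb2 held rank 1 of the 31 members under either treatment, at 2962 ± 531 normalized counts per kb in DMSO and 3599.8 ± 595 with MEKi (SD, n = 4 lines). Sema3c held rank 2 in DMSO at 1333 ± 199.6 and rank 3 with MEKi at 718 ± 283. Plxna1 moved from rank 4 to rank 2, Plxnb1 from 21 to 11, Sema4f from 15 to 6 and Sema6b from 9 to 18. Sema4b moved from rank 3 to rank 8.

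Levels were also summed over ligands and over receptors, per kb of exon and with no test. The 20 semaphorins summed to 4163 ± 680 normalized counts per kb in DMSO and to 4147 ± 1152 with MEKi. The ratio of MEKi to DMSO was 0.91, 1.16, 0.93 and 0.94 in the 4 lines, so 1 of 4 lines was higher. The 9 plexins summed to 4143 ± 630 in DMSO and to 5596 ± 690.2 with MEKi, with ratios of 1.24, 1.42, 1.39 and 1.38. Neuropilins summed to 239 ± 108 in DMSO and 424 ± 145 with MEKi, with ratios of 1.39, 1.604, 2.23 and 2.35. The sums of plexins and of neuropilins were higher with MEKi in 4 of 4 lines, and in line #3 the sum of semaphorins was higher as well.

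Shares within a class are given as a description. Sema3c made up 65.0% ± 5.92 of class 3 in DMSO and 38.1% ± 3.61 with MEKi (SD, n = 4 lines), while Sema3f went from 1.32% ± 0.58 to 10.4% ± 5.04 and Sema3b from 14.1% ± 3.80 to 23.5% ± 1.86. In class 4, Sema4b went from 42.3% ± 10.6 to 19.8% ± 1.84 and Sema4f from 5.64% ± 2.30 to 22.7% ± 11.9. Within class 6, Sema6b made up 75.2% ± 4.76 in DMSO and 39.0% ± 15.8 with MEKi, and Sema6c 2.69% ± 1.06 and 26.6% ± 6.64. Sema6a went from 3.82% ± 3.04 to 22.3% ± 22.4, with MEKi shares of 50.8% in line #3 and 0.65% in line #10. The class 3 sum averaged 2055 per kb in DMSO and 1873 with MEKi, being lower in lines #1, #5 and #10 (ratios 0.84, 0.74 and 0.71) and higher in line #3 (1.39). The class 6 sum was lower with MEKi in 4 of 4 lines (268 to 172 per kb on average) and the class 4 sum higher in 4 of 4 lines (1762 to 2046). Among plexins, Plxnb2 gave 71.3% ± 2.02 of the sum in DMSO and 64.2% ± 6.41 with MEKi, and Plxnb1 0.88% ± 0.65 and 4.99% ± 0.98. The share of Nrp1 among neuropilins was 31.9% ± 10.8 in DMSO and 45.8% ± 21.5 with MEKi. Lines #1, #3, #5 and #10 had Nrp1 shares of 23.0%, 32.5%, 25.4% and 46.9% in DMSO and of 37.3%, 76.7%, 27.4% and 41.7% with MEKi. The share was thus lower with MEKi in line #10, and line #3 had the widest gap.

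**Figure D4:**
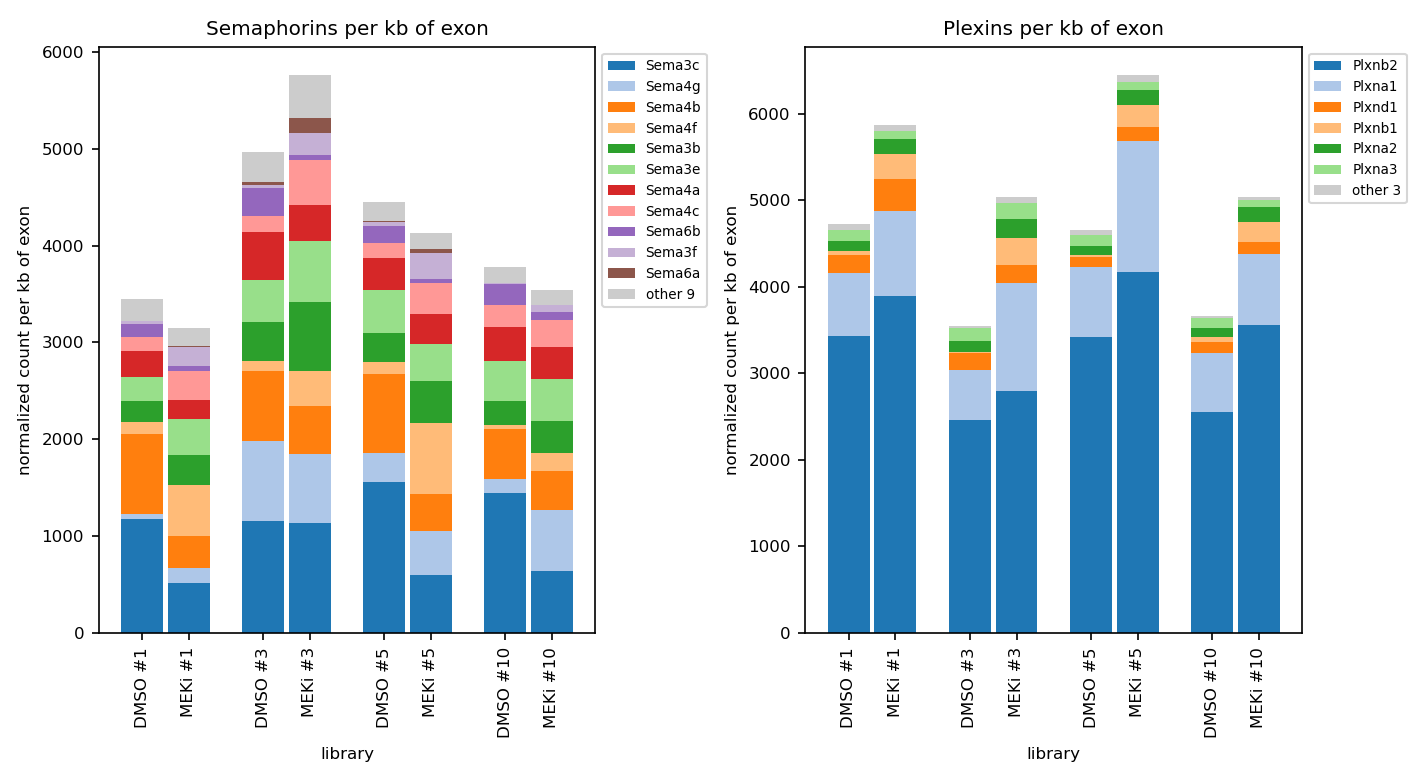
Normalized counts per kb of exon, stacked by gene, for semaphorins (left) and plexins (right) in each of the 8 libraries; the grey top segment sums the members not named. In lines #1, #5 and #10 the Sema3c segment shrinks with MEKi while Sema4f and Sema3f grow, and the plexin total is higher with MEKi in all 4 lines.

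The 4 lines also differed from each other. In the same fit, the F test of the lines passed for 11 of 29 members (27.6% of all genes). Sema5a headed them (adjusted p = 0.00020), with a 24.5-fold range among DMSO libraries and nearly the same order and levels with MEKi. Line #3 was highest and line #10 lowest for Sema5a. Both ends were the same lines for Sema6a (range of line means 5.31 on the log2 scale, adjusted p = 0.020) and Sema3d (3.75, adjusted p = 0.028). Sema3f and Sema4f were highest in line #5 and lowest in line #10, with ranges of 1.83 and 1.68 on the log2 scale and adjusted p values of 0.0038 and 0.0066. Plxna4 was highest in line #5 and lowest in line #3 (range 1.99, adjusted p = 0.0093). Sema3b, Plxnd1, Sema4a, Sema4g and Sema3g completed the 11. With eBayes run without the trend, 5 members passed the F test, and the number of all 15888 genes that passed went from 4391 to 1879.

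Line #3 was the line farthest from the other 3 in its response for 11 of 29 members (37.9%), against 44.7% of all genes tested. Line #10 was farthest for 8 members (16.6% of all genes), line #5 for 7 (19.9%) and line #1 for 3 (18.8%). Log2 fold changes of both signs among the 4 lines were found for 8 members, namely Nrp2, Plxna3, Plxna4, Sema3e, Sema3g, Sema4g, Sema5a and Sema6a (34.0% of all genes). Of these 8, Sema4g alone was called.

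**Figure D5:**
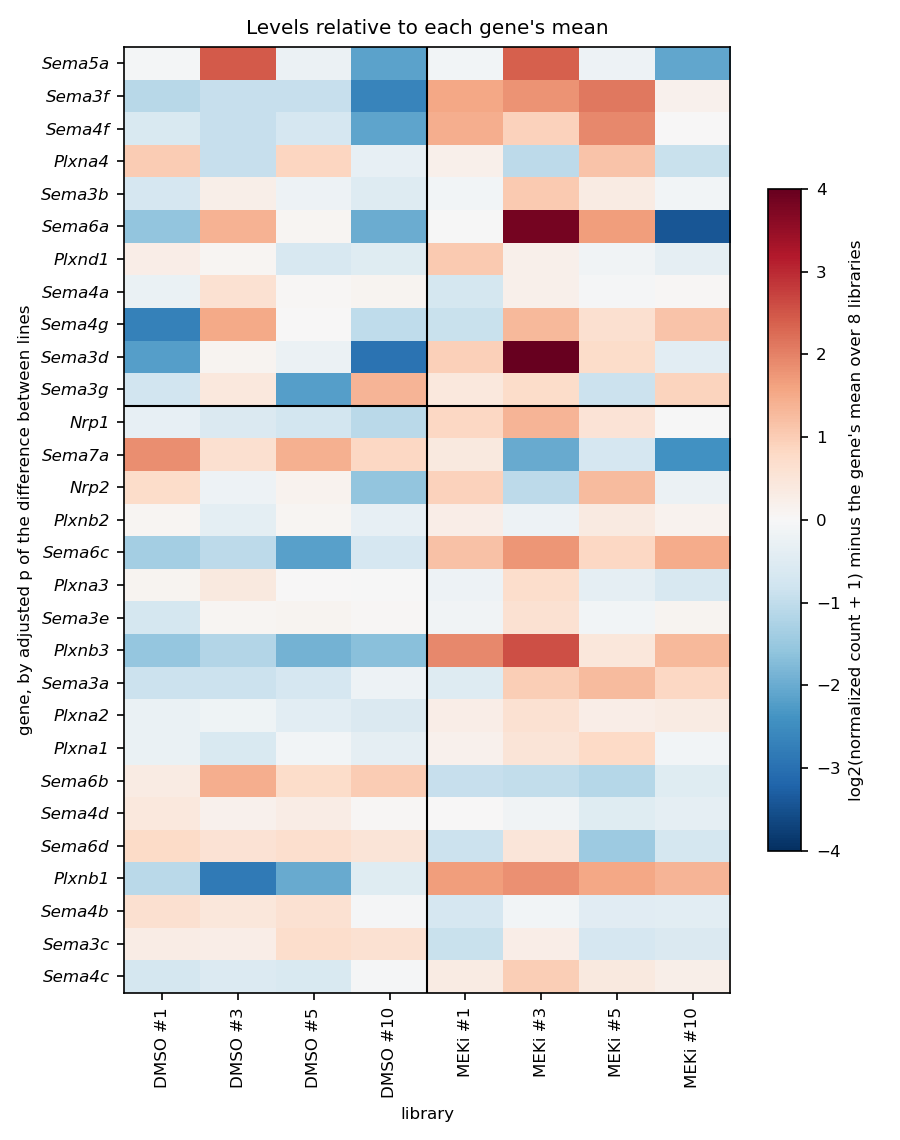
Heat map of log2(normalized count + 1) minus the mean of the gene over 8 libraries, for the 29 members tested, ordered by the adjusted p of the difference between lines. The vertical line separates 4 DMSO from 4 MEKi libraries, and the horizontal line separates the 11 members that differ between lines from the other 18. Sema5a repeats its DMSO pattern with MEKi, whereas Plxnb1, Plxnb3 and Sema6c change color with treatment.

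Known ligands and receptors were set side by side. Plxnb1 rose 9.19-fold while its ligand Sema4d fell by 0.48 on the log2 scale. Plxnb3 rose 8.78-fold while Sema5a stood at a log2 fold change of 0.01. Sema3a rose together with Nrp1, whereas Sema3f rose while Nrp2 was not called. Sema3c, which binds both neuropilins, fell by 0.95 while Nrp1 rose. Sema6d fell by 1.27 while its receptor Plxna1 rose by 0.68. Sema4c and Sema4g rose by 0.96 and 1.09, and their receptor Plxnb2 rose by 0.28. The calls of Sema4g and Plxnb2 were lost in 7 and 8 of 13 alternatives. Sema6b fell by 1.78 while Plxna4 was not called. Sema6a and Plxna4 were not called, while Plxna2, which Sema6a also binds, rose by 0.73. Sema3g and Nrp2 were both not called. Sema3e was not called and Plxnd1 passed at 0.38. Sema7a fell by 2.36 while Plxnc1 stayed at or below 15.5 normalized counts, and Itgb1, which encodes the integrin subunit bound by Sema7a, rose by 0.74 (adjusted p = 0.0054). Each of these is a pair of single-gene results from the same libraries, and no test of a pair was run.

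Genes around the family were counted in 5 lists. Of 16 co-receptors and partners tested, 5 were higher and 2 lower, with a median log2 fold change of 0.23; the 7 called make up 43.8% of the list, against 53.0% of all genes. Cspg4, a membrane proteoglycan, rose by 1.75 (adjusted p = 0.014) and the pseudokinase receptor Ptk7 by 0.87 (adjusted p = 0.0047), whereas the adhesion molecule Nrcam fell by 2.36 (adjusted p = 0.0015). With a mean of 9.73 in DMSO, Cspg4 passed the filter of 10 only through its MEKi libraries. Met, the receptor tyrosine kinase that associates with plexin B, fell by 0.31 (adjusted p = 0.037). Of 42 intracellular transducers, 19 were higher and 9 lower (66.7% called, median 0.30). The largest rises were those of Dpysl3, a collapsin response mediator (2.38, adjusted p = 0.0016), Mical1, an oxidase that severs actin downstream of plexins (1.77, adjusted p = 0.00015), and the kinase Fyn (1.58, adjusted p = 0.00064). The largest falls were those of Rap1gap (-1.47, adjusted p = 0.0013), Arhgap35 (-0.64, adjusted p = 0.0012) and Tiam1 (-0.64, adjusted p = 0.0046).

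VEGF ligands share neuropilins with class 3 semaphorins, and 3 of the 5 tested rose while none fell (median 1.05), against 27.3% higher and 25.6% lower over all genes. Vegfa stood at 1918, 2632, 1794 and 1877 in DMSO and at 8292.5, 15523, 7789 and 6219 with MEKi, with no overlap. Vegfa rose by 2.13 on the log2 scale (SE 0.14, adjusted p = 0.00020), Pgf by 1.89 (adjusted p = 0.033) and Vegfc by 1.05 (adjusted p = 0.0064). Vegfb was lower in each line but just missed the threshold (log2 fold change -0.44, adjusted p = 0.0503). The list of processing and shedding enzymes held 10 genes, not all of them known to act on semaphorins. Of these, 5 rose and 2 fell (median 0.43, against the same 27.3% and 25.6% over all genes). The rises were led by Adamts1 (3.66, adjusted p = 4.6e-05), Mmp14 (2.09, adjusted p = 0.00095) and Adam10 (0.88, adjusted p = 0.0070). The proprotein convertase Pcsk6 fell by 2.93 (adjusted p = 0.00024) and Dpy19l1, which mannosylates thrombospondin repeats, by 1.17 (adjusted p = 0.00048).

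Of 14 genes tested from other guidance families, 5 rose and 2 fell (median 0.19), so 7 of 14 were called, against 53.0% of all genes. Ntn4 rose by 3.33 (adjusted p = 8.8e-05) and Ntn1 by 2.98 (adjusted p = 0.00077). Robo2 was called higher by 3.49 (adjusted p = 0.0046), from a mean of 7.19 in DMSO to 83.9 with MEKi. It thus passed the filter of 10 only through its MEKi libraries, and its fold change is not exact. Slit1 fell by 1.26 (adjusted p = 0.025), though not in line #5, which held 30.1 in DMSO and 32.1 with MEKi. Reln was called lower by 2.74 (adjusted p = 0.0045), from a mean of 35.1 in DMSO to 4.95 with MEKi. It passed the filter only through its DMSO libraries, so its fold change is not exact either. The 7 called include Robo2 and Reln. Of the 87 genes tested in the 5 lists together, 37 were higher (42.5%, against 27.3% of all genes) and 15 lower (17.2%, against 25.6%). Without the block these counts were 19 and 4, against 2205 and 2347 of all 15888 genes.

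Markers of other cell types were read in the same libraries. The keratins Krt7, Krt8, Krt18 and Krt19 each held at least 9734 normalized counts in every library, and Cdh1 at least 19629.9, while Epcam was listed at 0 in every library of lines #1, #5 and #10 and at 10.4 and 3.75 in line #3. Of 7 epithelial markers tested, 5 were lower with MEKi (25.6% of all genes) and Cldn4 was higher (27.3% of all genes). The summed fibroblast markers ranged from 94.7 to 344 in DMSO and from 435 to 1245 with MEKi, with Col1a1 rising by 3.60, Col3a1, Pdgfra and Dcn not called (adjusted p = 0.64, 0.91 and 0.99), Lum at 0 in every library and Col1a2 at or below 4.29. Summed endothelial markers ranged from 38.1 to 82.9 and from 75.5 to 1779, with Tek and Vwf higher (3.77 and 2.14), Pecam1 and Kdr not called (0.13 and 0.43, adjusted p = 0.82 and 0.28) and Emcn at or below 1.02. With a mean of 8.21 in DMSO, Tek passed the filter of 10 only through its MEKi libraries. The sum of 1779 was that of line #3 with MEKi, where Vwf held 948 and Tek 805 normalized counts, and the same library held the highest value of Sema3d (988). Immune markers summed to between 150.5 and 232 in DMSO and between 230.3 and 509 with MEKi, with Csf1r higher (2.83), Ptprc and Cd68 not called (0.05 and 0.23, adjusted p = 0.92 and 0.47) and Cd3e at or below 0.49. Of the markers of Schwann cells and neurons, Mbp was higher (0.45) and Sox10 was at or below 0.96. The part of these genes in the changes of Nrp1, Plxnd1 and Sema3d, which vascular cells also express, was not tested.

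The members sit on 17 chromosomes. On GRCm38, Sema3b (chr9:107597674-107609229) and Sema3f (chr9:107681500-107710475) are 72270 bases apart on the minus strand and both rose, and Plxnb1 (chr9:109095389-109119917) lies 1.38 Mb further on. Chromosome 5 holds Sema3d, Sema3a, Sema3e and Sema3c in this order, with gaps of 536465 bases, 422710 bases and 3.32 Mb. The first pair rose, Sema3e was not called and Sema3c fell. Plxnb3 and Plxna3 are 556551 bases apart on the X chromosome, and of these Plxnb3 alone was called.

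Promoter windows in the RefSeq table were found for 26 members, 37 windows in all. Plxna1, Plxna4, Sema3b, Sema3f and Sema6a had no entry. Median GC content was 63.7% in the windows of members against 52.7% over all windows, and the median number of CpG dinucleotides was 15 against 7. The AP-1 motif TGANTCA, the site of Fos and Jun factors such as Fosl1, was present on either strand in 3 windows (8.11%) against 7.81% of all windows. The ETS motif CCGGAAGT was in 0 windows (3.89% of all), the E-box CACGTG in 3 (8.11% and 7.15%), the TEAD motif GGAATG in 3 (8.11% and 14.7%), and the CArG box in 1 (2.70% and 1.63%). The 3 windows with an AP-1 match belong to Sema4c, which rose, and to Sema6b and Sema4d, which fell.

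These 3 windows are printed because they hold the AP-1 motif and their genes have MEKi libraries clear of their DMSO libraries. Fosl1, of the factor family that binds the motif, was lower with MEKi (log2 fold change -3.73). It is the only gene of that family given here, and its part in the changes of the 3 genes was not tested. Capitals mark the AP-1 match and, in Sema4d, also a CArG box. The Sema4c window is chr1:36558332-36558631 on the minus strand, with TGACTCA 22 bases before the start. The Sema6b window is chr17:56133803-56134102 on the minus strand, with TGAGTCA 48 bases before the start. The Sema4d window is chr13:51748761-51749060 on the minus strand, with TGAATCA 239 bases and the CArG box 231 bases before the start.
Sema4c: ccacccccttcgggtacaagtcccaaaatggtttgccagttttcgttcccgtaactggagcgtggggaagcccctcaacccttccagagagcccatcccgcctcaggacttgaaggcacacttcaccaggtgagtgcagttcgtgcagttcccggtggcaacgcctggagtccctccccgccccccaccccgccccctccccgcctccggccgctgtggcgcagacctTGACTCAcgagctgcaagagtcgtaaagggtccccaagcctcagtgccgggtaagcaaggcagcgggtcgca
Sema6b: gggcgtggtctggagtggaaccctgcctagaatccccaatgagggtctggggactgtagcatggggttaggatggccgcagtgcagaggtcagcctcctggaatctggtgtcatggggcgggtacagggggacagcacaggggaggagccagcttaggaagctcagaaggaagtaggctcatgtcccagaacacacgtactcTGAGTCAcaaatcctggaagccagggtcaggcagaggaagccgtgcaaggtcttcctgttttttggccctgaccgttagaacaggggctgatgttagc
Sema4d: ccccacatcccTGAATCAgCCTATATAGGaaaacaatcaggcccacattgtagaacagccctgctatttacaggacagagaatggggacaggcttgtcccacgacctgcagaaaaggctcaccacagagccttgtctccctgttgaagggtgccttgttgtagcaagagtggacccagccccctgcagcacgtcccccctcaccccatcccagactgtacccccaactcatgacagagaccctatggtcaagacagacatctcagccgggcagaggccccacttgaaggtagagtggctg

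A match of letters is a description of the sequence, and binding was not measured here. Sema4c and Sema6b each have a second window in the table, and Sema4d has 3 in all, without an AP-1 match in the others. Which start was used in these cells was not measured.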

How the data were processed

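RNA of 4 primary murine PDAC cell lines, DMSO or trametinib for 48 h, was made into TruSeq Stranded mRNA libraries and sequenced as read pairs by the authors. The submitters' processing notes name CASAVA 2.17, Salmon 0.12, DESeq2 1.18 and the build mm10, without roles. The authors deposited normalized counts per gene symbol, a signal scaled between libraries by a method not given in the sources used here. Whole reads could not be recovered from them: 42.5% to 63.9% of low values were whole multiples of the estimated step within 0.02. Count models were therefore not used. Intervals cover the variation between lines in the change with MEKi, with noise of single libraries included.

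Values were transformed as log2(value + 1) and fitted in limma 3.58.1 (R 4.3.3, lmFit and eBayes with trend), with treatment and cell line as terms, for the 15888 genes whose mean was 10 or more. Tests were two-sided, with Benjamini-Hochberg adjustment across these genes and a threshold of 0.05. The differences between lines came from the moderated F test of the same fit. DMSO and MEKi libraries of a line are paired because they come from the same cell line. Their deviations from the treatment means correlated at 0.63 to 0.72 across genes. Tables were handled in Python 3.11.15 with pandas 2.3.3 and numpy 2.4.6, and plots drawn with matplotlib 3.10.9.

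Genes were matched by symbol to GENCODE M21 on GRCm38, and all 31 members matched. A further allele of the mouse model is not reported here. The members, the gene lists and the tests were chosen with earlier results of these data known. Every member is accounted for, and of each list the up to 3 genes with the largest rise and the up to 3 with the largest fall among those called are given. Alternatives were pseudocounts of 0.1 and 5, equal totals, quantile normalization, centring on the median, no filter, a filter at 50, eBayes without trend, no block, and each line left out in turn.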

Additional observations from a re-analysis of the deposited data

Results flagged for a closer look

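In a group of 4 lines, a value was singled out when its gap to the nearest of the others, divided by the range, passed the 95% critical value of Dixon's test. For independent groups of normally distributed values, chance singles out about 1 in 20, which would be 4.35 of the 87 groups examined here. Counts were taken untransformed and the groups of a gene are not independent, so 4.35 is a rough guide only. The number found was 5. The log2 fold change of Sema3c was -0.023 in line #3 against -1.40 to -1.18 in the other lines. Sema3d held 988 normalized counts in MEKi line #3 against 44.7 to 118. Sema5a held 2735 in DMSO line #3 against 111 to 475, and 2613 in MEKi line #3 against 117 to 467. Sema3e held 2339 in DMSO line #1 against 3901 to 4135. Line #3 accounts for 4 of the 5.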

How the results depend on the processing

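Of 376 values of members over the alternatives, 337 kept their direction and side of the threshold, 31 lost the call, 4 gained it and 4 changed sign. All 4 changes of sign are Sema5a, whose main log2 fold change was 0.01: it was -0.14 with quantile normalization, -0.053 with centring on the median, and -0.013 to 0.030 with a line left out. Of the 21 called members, 13 were called in every alternative that tested them and none changed sign. With the replicate block for the line removed, limma called 10 members higher and 5 lower, 2205 of all genes higher and 2347 lower, and 19 genes of the surrounding lists higher and 4 lower. The calls of Sema3b, Sema3d, Sema4d, Sema4g, Plxnb2 and Plxnd1 were the ones lost without it. With a line left out, 12 to 16 members were higher and 3 to 7 lower, the fewest lower without line #1. Over all genes these fits gave 3383 to 4195 higher and 3302 to 4007 lower, with 3401 of 15932 lower without line #1. With eBayes without trend, 5 members differed between lines. Equal totals moved the share of higher calls over all genes from 51.6% to 61.8% and the median log2 fold change from 0.07 to 0.20. All 21 calls of members were kept. The share was 46.1% with centring on the median, where 13 members were higher and 7 lower. It was 47.2% with quantile normalization, where 15 members were higher and 6 lower. The cause of these shifts was not tested. Depth limits Plxnc1 and Sema5b, which lie below the value of 3 reads in most libraries.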
